A study of Mus musculus with 3 samples.

Results

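Spiny projection neurons of the mouse nucleus accumbens that carried RNA of the FLiCRE construct were compared with spiny neurons of the same libraries that carried none. All 3 samples belong to 1 group: Thy1::ChR2 mice, in which the Thy1 promoter drives the light-gated cation channel channelrhodopsin-2, with FLiCRE labelling while ChR2 in the accumbens was stimulated by light, and tissue from a coronal section of 400 um. There was no unstimulated, unlabelled or uninjected group, so each comparison was between cells of the same libraries. The deposited counts were 1 pooled matrix of 11625 cells, whose 3 barcode suffixes name 3 libraries; nothing ties a suffix to a numbered sample, and the library number is only a name here. Nothing states that the samples came from separate animals, so the spread that the p-values measure may be technical. For genes it is the spread between sums per library and neuron class, in which the classes of a library count separately.

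FLiCRE is a recorder of activity made of several virus-delivered parts. In its published design, a rise of calcium brings a TEV protease to a membrane-tethered tTA transcription factor, light uncages the cleavage site between them, and the freed tTA enters the nucleus and switches on a reporter gene. TEV and tTA transcripts therefore mark cells that received the machinery, whereas the reporter, taken here to be the mCherry feature of the matrix, is made where the recorder fired. Spiny projection neurons are the GABA-releasing output cells of the striatum. Those of the direct type carry the dopamine receptor Drd1 and express Tac1 and Pdyn, and those of the indirect type carry the adenosine receptor Adora2a with Drd2 and Penk.

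Members were chosen by their counts of the construct and class genes, so those counts are described below without a test. They were taken from cells with at least 300 detected genes, at most 20% mitochondrial UMIs and 1500 to 6000 UMIs in all, where each UMI stands for 1 captured RNA molecule. A cell entered the Drd1 stratum with at least 1 Drd1 UMI and no Adora2a UMI, or the Adora2a stratum with the reverse, and in both strata it had to lack Slc17a7, Mog and Aqp4, markers of glutamatergic neurons, oligodendrocytes and astrocytes. Of 10291 cells that passed the limits on genes and mitochondrial share, 1909 were eligible. Bearing cells had at least 2 UMIs of TEV and tTA together and numbered 601; free cells had no UMI of TEV, tTA or mCherry and numbered 747, which makes 1348 members. The remaining eligible cells, 444 with 1 construct UMI and 117 with mCherry alone, belonged to neither arm. Library 1 gave 15 bearing and 79 free cells, library 2 gave 449 and 562, and library 3 gave 137 and 106. The Drd1 stratum held 387 bearing and 411 free cells and the Adora2a stratum 214 and 336. The members' summed depth was 177856 UMIs in library 1, 3054364 in library 2 and 762119 in library 3, so library 2 weighs most in every sum. Barcode sequences shared between libraries numbered 13, 7 and 22 for the 3 pairs of libraries, and 5 bearing and 4 free members carried one.

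Genomic stretches before 3 genes are shown first, because the genes that differed between the arms in cells with a clear spiny identity include a linker histone and a pair of interferon-response genes. Each is the 120 bases from 150 to 31 bases before the RefSeq transcription start on build GRCm38.p6, written 5′ to 3′ on the gene's strand. They were chosen after the values were seen. In the first pair, capitals mark matches to the interferon-response motif, GAAA followed by any 2 bases and GAAA, on either strand (overlapping matches run together).
Isg15, chr4:156200849-156200968, minus strand: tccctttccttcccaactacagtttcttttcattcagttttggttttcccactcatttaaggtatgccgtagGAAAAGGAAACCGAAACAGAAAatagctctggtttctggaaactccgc
Ifit1, chr19:34640739-34640858, plus strand: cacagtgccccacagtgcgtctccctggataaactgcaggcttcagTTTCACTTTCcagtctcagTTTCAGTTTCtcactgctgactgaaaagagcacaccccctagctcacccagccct
Hist1h1c, chr13:23738657-23738776, plus strand: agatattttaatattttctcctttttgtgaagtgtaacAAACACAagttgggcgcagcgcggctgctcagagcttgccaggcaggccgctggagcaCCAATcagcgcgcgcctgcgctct
In the Hist1h1c stretch, capitals mark AAACACA, the H1 box found before many linker histone genes, and CCAAT, both searched on both strands. Isg15 held 3 overlapping matches, starting at -78, -72 and -66 from the transcription start, and Ifit1 held 2 on the other strand, at -104 and -85. Of 32851 RefSeq promoter windows of 300 bases (250 before to 50 after the start), 3.44% held at least 1 match to this motif and 0.225% held 2 or more. AAACACA occurred in 7.18% of the windows and CCAAT in 37.4%. Hist1h2bc was not found in the promoter table. A match describes the letters of the window and is not a measured binding site.

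The construct counts that chose the arms were low in most bearing cells. Of the 601, 426 held both TEV and tTA, 139 held TEV alone and 36 held tTA alone. Exactly 2 construct UMIs were found in 187, exactly 3 in 118, 4 to 9 in 200 and 10 or more in 96, with a median of 3. The highest TEV count was 30 and the highest tTA count 135 in a cell. Just outside the threshold, the 444 cells with 1 construct UMI held TEV in 313 and tTA in 131. Their median depth was 2784.5 UMIs, beside 3025 in cells with exactly 2 construct UMIs and 2380 in free cells.

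Construct RNA was found less often in oligodendrocytes and in cells rich in C1q, the only other classes counted, than in spiny neurons. In the same depth window, 57 of 640 oligodendrocytes (cells with Mog and none of the other class genes) held at least 1 construct UMI, or 8.91% (95% Clopper-Pearson interval 6.82 to 11.4), and 14, or 2.19% (1.20 to 3.64), held at least 2. Among 231 cells with at least 10 C1q UMIs, 11.7% (7.85 to 16.5) held at least 1 and 0.433% (0.0110 to 2.39) at least 2. Among eligible spiny neurons, 54.7% (52.5 to 57.0) held at least 1 and 31.5% (29.4 to 33.6) at least 2. Median depths were 2712.5, 2456 and 2745 UMIs. These intervals cover counting error only. The shares differed by library. At least 1 construct UMI was found in 3.23%, 11.6% and 5.77% of the oligodendrocytes of libraries 1 to 3. Among C1q cells the shares were 1.39%, 18.2% and 12.2%, and among spiny neurons 27.6%, 54.4% and 65.6%. In each library the glial share lay under the spiny one, for 1 UMI and for 2.

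The bearing share was higher among Drd1 than among Adora2a cells in every library. It was 20% of 50 Drd1 cells and 7.58% of 66 Adora2a cells in library 1, 32.8% of 880 and 27.5% of 582 in library 2, and 47.3% of 186 and 33.8% of 145 in library 3. The mean was 33.4% ± 13.7 (SD, n = 3 libraries) for Drd1 and 22.95% ± 13.7 for Adora2a, and the difference within libraries was 10.4 ± 4.43 percentage points. Since construct and class counts chose the arms and strata, this is a description with no test. With every cell thinned to 1500 UMIs the difference was 11.1 ± 3.37 percentage points, again higher in Drd1 in 3 of 3.

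mCherry, which played no part in choosing bearing cells, was found more often in them. Here free cells were replaced by all eligible cells without TEV or tTA, so that mCherry chose neither side. In library 1, 5.95% of 84 cells without construct RNA, 5.88% of 17 with 1 construct UMI and 26.7% of 15 bearing cells held an mCherry UMI. The shares in library 2 were 15.6% of 666, 18.4% of 347 and 34.1% of 449, and those in library 3 were 7.02% of 114, 3.75% of 80 and 23.4% of 137. The bearing shares lay above both others in all 3 libraries. The mean at 1 construct UMI was 9.36% beside 9.53% at 0. With every cell thinned to 1500 UMIs, cells were sorted anew by the construct UMIs that were left. The thinned classes therefore do not hold the same cells, and the class at 1 took in cells that had held more. Its mean was 10.3%, beside 5.26% at 0, and in library 1 it rests on 3 of 20 cells. The bearing share exceeded that at 0 by 18.5 ± 2.19 percentage points (SD, n = 3 libraries; exact sign-flip permutation test p = 0.25, the smallest possible), by 15.1 ± 2.98 after thinning to 1500 UMIs, and by 9.06 ± 2.08 when at least 2 mCherry UMIs were asked for. Oligodendrocytes held an mCherry UMI in 0 of 62 cells in library 1 (3 counts of that total would be 4.84%, and the Clopper-Pearson upper limit is 5.78%), 11.6% in library 2 and 2.40% in library 3, and C1q cells in 1.39%, 10.9% and 4.08%. The spiny shares at 0 construct UMIs were thus a few percentage points above the glial ones in each library, and their intervals overlapped.

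**Figure D1:**
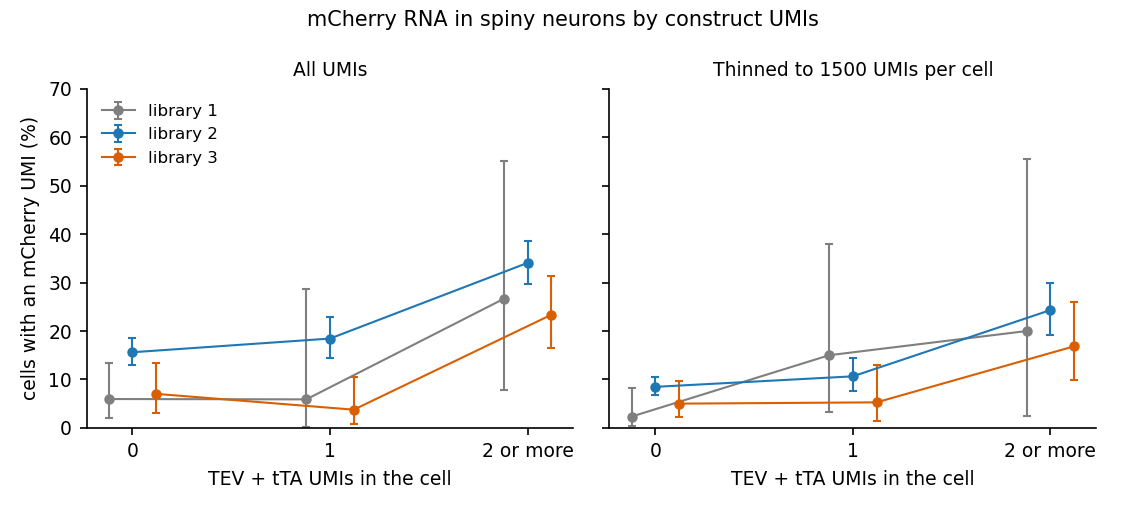
Share of eligible spiny neurons with at least 1 mCherry UMI (y axis, percent) against the number of TEV and tTA UMIs in the cell (x axis), one line per library, with 95% Clopper-Pearson intervals; left, all UMIs, right, every cell thinned to 1500 UMIs. In each library the share at 2 or more construct UMIs, 26.7%, 34.1% and 23.4% unthinned, is above that at 0. In the right panel the construct UMIs are those left after thinning.

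mCherry RNA was very uneven among bearing cells. It was present in 189 of them, with a single UMI in 118, and of its 1404 UMIs one cell held 719, the next 193 and the third 99. Summed mCherry in bearing cells was 3939 CPM (UMIs scaled to a sum of 1000000 per library, stratum and arm) in the Drd1 cells of library 1, 1265 and 111 CPM in the Drd1 and Adora2a cells of library 2, and 144 and 96.8 CPM in those of library 3. In cells without TEV or tTA it was 51.9, 62.8, 67.5, 24.2 and 31.7 CPM in the same order. Every bearing sum was above its partner. edgeR gave 3.22 on the log2 scale (SE 0.791, adjusted p = 0.468). It gave 3.01 (adjusted p = 0.596) without library 1 and 3.52 (adjusted p = 0.770) without library 3. Only without library 2 did mCherry pass, at 3.88 (SE 0.548, adjusted p = 0.0238). The library 1 bearing sum, which stays in that fit, rests on 76 mCherry UMIs. Of its 10 cells, 3 held mCherry and 1 held at least 2 UMIs of it.

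Bearing cells were deeper and their RNA differed in make-up. Their median depth was higher in 6 of 6 library and stratum pairs, with a mean of 2802 against 2287 UMIs, and so was the number of genes detected, 1690 against 1427. The rule asks for construct UMIs in bearing cells and for none in free cells, which favours deeper cells in the bearing arm. Depth and genes detected were thus not independent of the choice of the arms, and their p below is no separate support. The share of Malat1, a long RNA retained in the nucleus, was lower in 6 of 6 pairs, 3.46% of UMIs against 4.73%. The median mitochondrial share was 4.96% against 5.53% and was higher in 2 of 6 pairs. The part of depth and RNA make-up in the results below was not tested, apart from the matching on UMIs given there. Each of these differences had an exact sign-flip permutation p of 0.25 over 3 libraries, the smallest possible.

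The spiny label was checked with 10 markers that the rule did not use, among them Ppp1r1b (DARPP-32), Pde10a, Rgs9, Bcl11b, Penk, Tac1, Pdyn, Drd2 and Gpr6. At least 4 of them were detected in most cells of both arms, but a minority of free cells went against the label. Fewer than 4 were found in 78 of 747 free cells, or 10.4% (8.34 to 12.9), and in 10 of 601 bearing cells, or 1.66% (0.801 to 3.04). The share was higher among free cells in every library, 12.7% against 6.67% in library 1, 9.43% against 0.891% in library 2 and 14.2% against 3.65% in library 3. None of the 10 markers was detected in 16 free cells and in no bearing cell. The marker-poor free cells were shallow, with a median of 1945.5 UMIs against 2439 in the other free cells.

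**Figure D2:**
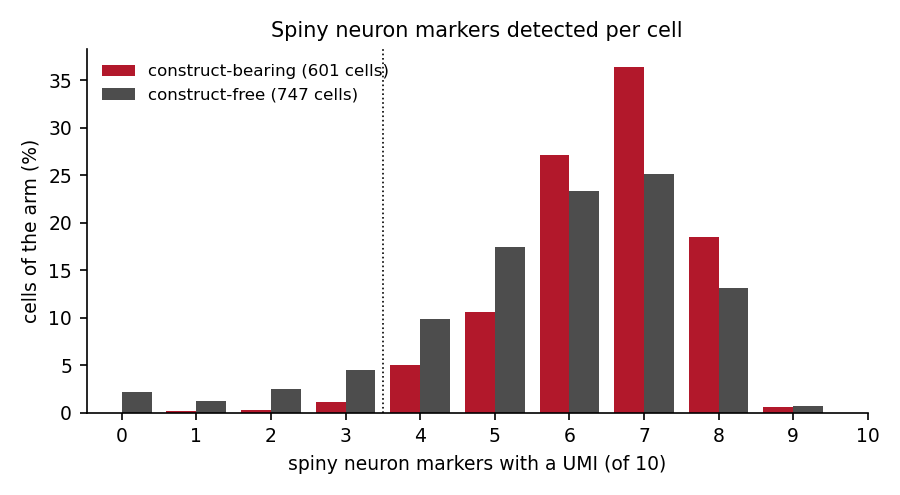
Percent of the cells of each arm (y axis) by the number of 10 spiny neuron markers with at least 1 UMI (x axis), for 601 bearing and 747 free cells; the dotted line separates cells with fewer than 4 markers. Free cells are more frequent to the left of the line, 10.4% against 1.66%.

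RNA of several other cell types made up more of these marker-poor free cells, but not that of glutamatergic neurons, whose markers were at 4.76 per 10000 UMIs against 5.202 in the other free cells. Per 10000 UMIs the marker-poor free cells held 48.4 UMIs of 9 endothelial and mural markers, against 2.02 in the other free cells and 1.71 in marker-bearing cells of the construct-bearing arm. Of 13 microglial and macrophage markers they held 100 per 10000, against 19.2 and 14.7, and of 10 oligodendrocyte markers 41.7, against 12.3 and 12.2. For 11 astrocyte markers the values were closer, 16.2 against 14.2 and 11.6. For 12 interneuron markers they were 15.9 against 1.40 and 5.09, so that among cells with at least 4 spiny markers the bearing arm held more. The marker-poor bearing cells held 24.4 per 10000 of these. Over the library and stratum sums, the endothelial and mural list ranged from 0 to 2.51 per 10000 in bearing cells and from 0.884 to 24.9 in free cells, and the microglial list from 4.48 to 30.5 and from 4.49 to 44.2. The arms overlapped in every list, and no marker of these 2 lists was at 0 in either arm.

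Genes were tested on raw counts summed per library, stratum and arm, with each library and stratum as a block, by edgeR's quasi-likelihood test with Benjamini-Hochberg adjustment at 0.05. The Adora2a stratum of library 1 had only 5 bearing cells and was left out, which leaves 5 pairs. The 8 genes of the rule were not tested. Of 6145 genes tested, 35 passed (0.57% of the genes), 2 higher in bearing cells (0.0325%) and 33 lower (0.537%), and 412 had an unadjusted p under 0.05. DESeq2 called 2 genes, both lower, and with the block left out edgeR called 0 genes, with 82 at an unadjusted p under 0.05. Without library 2 it also called 0, with 274 at that level. The strata of a library entered as separate pairs. With them summed, edgeR called 6 of 7390 genes, 0 higher and 6 lower.

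The 2 genes higher in bearing cells were both histone genes of the large histone cluster on chromosome 13. Most histone transcripts lack a poly(A) tail, so a 3′ library primed on that tail sees only the part that carries one. Hist1h1c (chr13:23738808-23740367, plus strand) encodes the linker histone H1.2, which binds the DNA between nucleosomes. It measured 156 CPM in bearing Drd1 cells of library 1, 125 and 138 CPM in the Drd1 and Adora2a cells of library 2 and 90.6 and 151 CPM in those of library 3. The free sums were 38.3, 47.8, 78.5, 50.6 and 64.7 CPM in the same order. All 5 bearing sums were above all 5 free sums. edgeR gave a log2 fold change of 1.07 (SE 0.181, adjusted p = 0.00163; 5 of 5 pairs), and the DESeq2 adjusted p was 0.0739. The library 1 pair rests on 3 and 2 UMIs. The 5 pairs come from 3 libraries, and with the strata of a library summed neither histone gene passed: Hist1h1c was at 1.04 (SE 0.184, edgeR adjusted p = 0.0924) and Hist1h2bc at 0.69 (SE 0.159, adjusted p = 0.228).

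Hist1h2bc (chr13:23684199-23692908, plus strand) encodes a core histone of the H2B family. Its bearing sums were 156, 424, 545, 218 and 230 CPM in the same order of library and stratum, and its free sums 191, 207, 340, 152 and 151 CPM. Bearing was higher in 4 of 5 pairs and lower in the Drd1 cells of library 1, the shallowest pair, with 19388 UMIs in its bearing sum. The arms overlapped across libraries. edgeR gave a log2 fold change of 0.72 (SE 0.141, adjusted p = 0.00633). Without library 2 it was 0.37 (adjusted p = 0.797), and that of Hist1h1c was 1.03 (SE 0.367, adjusted p = 0.686).

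Both histone genes were also set against the amount of construct RNA. With the 3 libraries summed, Hist1h1c was at 59.4 CPM in free cells, 94.9 at 1 construct UMI, 102 at 2, 135 at 3, 137 at 4 to 9 and 132 at 10 or more. Hist1h2bc was at 243, 308, 398, 389, 450 and 365 CPM over the same classes. Summed in this way, the level at 1 construct UMI lay between the free cells and the bearing classes in both genes, and cells with 10 or more were not above those with 4 to 9. In library 3 alone Hist1h1c was at 57.1, 131, 131, 94.0, 104 and 117 CPM, so that the free cells were lowest but the classes with construct RNA were in no order. Against the same free cells, the log2 fold change of Hist1h1c was 0.64 (SE 0.200, edgeR adjusted p = 0.212) at exactly 1 construct UMI, 1.19 (SE 0.197, adjusted p = 0.000606) at 3 or more and 1.23 (SE 0.215, adjusted p = 4.72e-06) at 4 or more. That of Hist1h2bc was 0.33 (SE 0.123, adjusted p = 0.532), 0.81 (SE 0.134, adjusted p = 0.000606) and 0.88 (SE 0.146, adjusted p = 1.01e-06). These comparisons share their free cells, and the difference between construct classes was not tested. Library 1 entered none of them, since each of its strata had fewer than 10 cells in these classes.

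**Figure D3:**
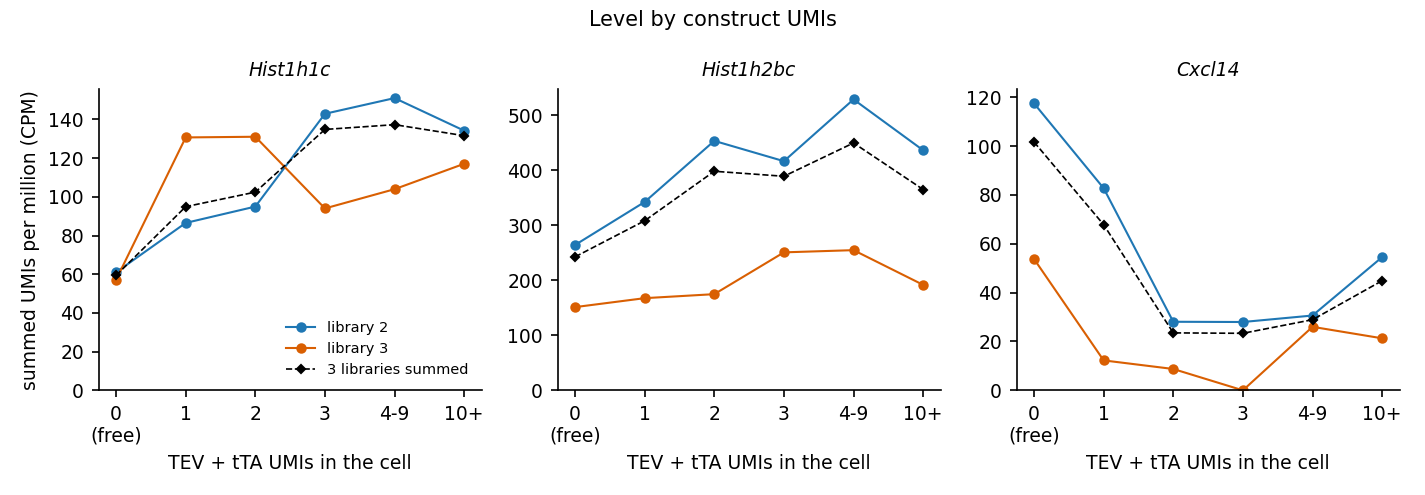
Summed level in CPM (y axis) of Hist1h1c, Hist1h2bc and Cxcl14 by the number of TEV and tTA UMIs in the cell (x axis; 0 stands for the free arm) in libraries 2 and 3 and in the 3 libraries summed; library 1 is not drawn alone because it has 15 bearing cells. The histone genes are lowest at 0, at 59.4 and 243 CPM summed, and Cxcl14 is highest there, at 102 CPM.

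Bearing cells were deeper, and the histone genes were examined at like depth; they passed with paired cells and did not pass in either of 2 depth windows. With bearing and free cells paired so that their UMIs differed by at most 5%, a setting added after the data were seen, Hist1h1c stood at 1.06 (SE 0.198, edgeR adjusted p = 0.00151) and Hist1h2bc at 0.67 (SE 0.125, adjusted p = 0.00139). Library 1 had too few pairs to enter that fit. With library 1 left out and no pairing, the genes stood at 1.07 (SE 0.180, adjusted p = 0.000369) and 0.77 (SE 0.130, adjusted p = 0.000369). A looser matching on the nearest UMI count, which left bearing cells deeper (median 3285 against 2589 UMIs in the Drd1 cells of library 2), gave 1.09 (adjusted p = 0.00647) and 0.70 (adjusted p = 0.00931). Within windows of depth neither gene passed: at 1500 to 3000 UMIs they stood at 1.09 (adjusted p = 0.0995) and 0.45 (adjusted p = 0.488), and at 3000 to 6000 UMIs at 0.92 (adjusted p = 0.102) and 0.67 (adjusted p = 0.208). The lower window kept library 1 and the higher one did not, so these fits differ in libraries as well as in depth. In bearing cells that held no mCherry UMI they were 1.07 (adjusted p = 0.00137) and 0.65 (adjusted p = 0.0109). By stratum, Hist1h1c had 1.27 in Drd1 and 0.88 in Adora2a cells, and the interaction, -0.39 (SE 0.381, adjusted p = 0.999), did not pass.

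Of the 33 genes lower in bearing cells, 10 were lower in 5 of 5 pairs: AW112010, Sparc, Lgals1, Id2, Cyba, Fcer1g, Sepp1, H2-K1, Stmn1 and Rps23. Some of these pairs rest on few UMIs, such as 0 bearing and 1 free UMI of AW112010 in the Drd1 cells of library 3. The log2 fold changes of the 10 genes ran from -1.67 for AW112010, an interferon-inducible transcript, to -0.58 for Rps23, a protein of the small ribosomal subunit. Sparc, a matrix protein, measured 0, 27.3, 28.8, 16.8 and 18.2 CPM in bearing and 115, 55.8, 84.6, 19.0 and 144 CPM in free sums, at -1.47 (SE 0.274, edgeR adjusted p = 0.00358). The sums of the arms overlapped, since the free Drd1 cells of library 3 stood at the bearing level. Rps23 measured 624, 460, 447.5, 443 and 545 CPM in bearing and 1205, 557, 568, 670 and 1021 CPM in free sums. Many of the 33 are best known from other cell types. The largest difference was that of Higd1b, a pericyte gene, at -3.70 on the log2 scale. Ndufa4l2, at -3.32, and Cald1 (caldesmon), at -2.72, were the 2 genes that DESeq2 also called. Other genes of vessel walls and their surroundings had log2 fold changes of -3.32 for Vtn (vitronectin), -2.46 for Myl9 (a myosin light chain) and -2.12 for Acta2 (smooth muscle actin), each with an edgeR adjusted p of 0.00686 or less. Among myeloid genes, Ly86 was at -2.73, C1qa at -1.14, C1qb at -1.21 and C1qc at -1.41, the last 3 encoding the chains of complement C1q, and Fcer1g, an adaptor of Fc receptors, was at -1.23. These were named after their values were seen, except Fcer1g. Of the fixed lists, 3 of 8 tested endothelial and mural markers and 4 of 9 microglial markers passed, all lower, beside 0.537% of all genes tested.

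The RNA of these 33 genes in the free arm lay largely in the cells that went against the spiny label. Free cells with fewer than 4 spiny markers held 8.78% of all free UMIs, but a median of 51.4% (range 9.90 to 81.7%) of the free UMIs of the 33 genes. For Vtn the share was 77.9% of 204 UMIs, and 1 cell held 35. For C1qa it was 60.1% of 378 UMIs, and 1 cell held 51. For Cxcl14 it was 9.90% of 202 UMIs, the lowest of the 33.

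The test was therefore repeated with only cells that had at least 4 of the 10 spiny markers, an alternative chosen after the data were seen. It kept 591 bearing and 669 free cells and 4 pairs, since library 1 fell under 10 bearing cells in both strata. Of 7821 genes tested, 5 passed (0.0639%), 4 higher (0.0511%) and 1 lower (0.0128%), with 512 at an unadjusted p under 0.05. DESeq2 called 0 genes with 59 at that level. Of the 33 lower genes, 23 could be tested, 21 stayed negative and 1 passed, and their median log2 fold change moved from -1.37 to -0.40. C1qa went to 0.07, Sparc to 0.00 and H2-K1 to -0.10.

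**Figure D4:**
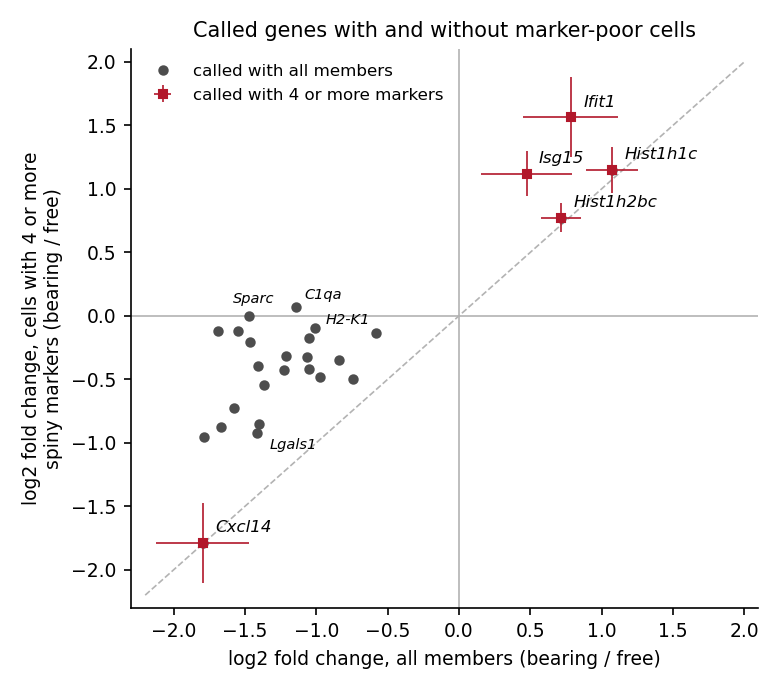
Log2 fold change of bearing over free with all members (x axis) against that with cells of 4 or more spiny markers (y axis), for the 25 genes called with all members that both fits tested (dots, and squares for 3 of them) and for Isg15 and Ifit1; squares mark genes called with 4 or more markers, with standard errors as bars, and the dashed line marks equal values. Cxcl14 and the 2 histone genes lie near the dashed line, while C1qa, Sparc and H2-K1 lie near 0 on the y axis.

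The histone genes passed again with the marker-poor cells left out. Hist1h1c had a log2 fold change of 1.15 (SE 0.181, edgeR adjusted p = 0.000221, higher in 4 of 4 pairs) and Hist1h2bc of 0.77 (SE 0.116, adjusted p = 0.00017, higher in 4 of 4 pairs). Both also passed when these cells were in addition paired within 5% of UMIs, at 1.17 (adjusted p = 0.0135) and 0.67 (adjusted p = 0.0201). Without library 2 they stood at 1.01 (adjusted p = 0.92) and 0.41 (adjusted p = 0.995).

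The other 2 higher genes, Isg15 and Ifit1, belong to the interferon response, and their promoter stretches were shown above. Isg15 (chr4:156199424-156200818, minus strand) encodes a ubiquitin-like protein that is joined to other proteins after interferon. In cells with at least 4 spiny markers it measured 186 and 99.7 CPM in bearing Drd1 and Adora2a cells of library 2, and 86.8 and 12.1 CPM in those of library 3. The free values were 87.7, 44.8, 39.8 and 0 CPM. Bearing was higher in 4 of 4 pairs, with values that overlapped across libraries. The Adora2a pair of library 3 rests on 2 bearing and 0 free UMIs. edgeR gave a log2 fold change of 1.12 (SE 0.178, adjusted p = 0.000221). With all members it was 0.47 (SE 0.322, adjusted p = 0.923). There the free Adora2a cells of library 3 stood at 137 CPM against 12.1 in the bearing cells, and 34.4% of the 160 free Isg15 UMIs lay in marker-poor cells. Without library 2, whose sums held most of its UMIs, Isg15 with all members was at -0.69 (SE 0.679, adjusted p = 0.857), and with at least 4 markers neither interferon gene had enough UMIs to be tested.

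Ifit1 (chr19:34640871-34650009, plus strand) encodes a protein that binds foreign RNA. With at least 4 spiny markers it measured 55.0, 39.9, 34.7 and 0 CPM in bearing cells and 21.9, 9.9, 6.6 and 0 CPM in free cells, in the same order. It was higher in 3 pairs and absent from both arms of the fourth. edgeR gave a log2 fold change of 1.57 (SE 0.315, adjusted p = 0.0175), against 0.78 (SE 0.334, adjusted p = 0.652) with all members, where marker-poor cells held 47.9% of 48 free UMIs. With at least 5 markers Ifit1 did not pass, at 1.43 (SE 0.339, edgeR adjusted p = 0.0644). With at least 3 it was not among the genes tested. Its depth was low, with 88 UMIs in all bearing members and 25 in free cells with at least 4 markers.

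Of the 39 interferon-response genes listed, 13 could be tested in cells with at least 4 markers, 2 passed and 9 were positive, with a median of 0.26. Over all 7821 genes tested, 0.0639% passed, 4059 were positive and the median was 0.01. Ifit3 had 1.01 (adjusted p = 0.58) and Oasl2, a relative of the RNA-sensing oligoadenylate synthetases, 0.74 (adjusted p = 0.77). Bst2 (tetherin) was at -0.52 (adjusted p = 0.82) and Ifitm3 at -0.44 (adjusted p = 0.52). With all members 9 were tested, 0 passed and the median was -0.06. Of the 13, 10 had a promoter window and 6 of these held the GAAA motif, among them Bst2 and Ifitm3, whose log2 fold changes were negative.

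**Figure D5:**
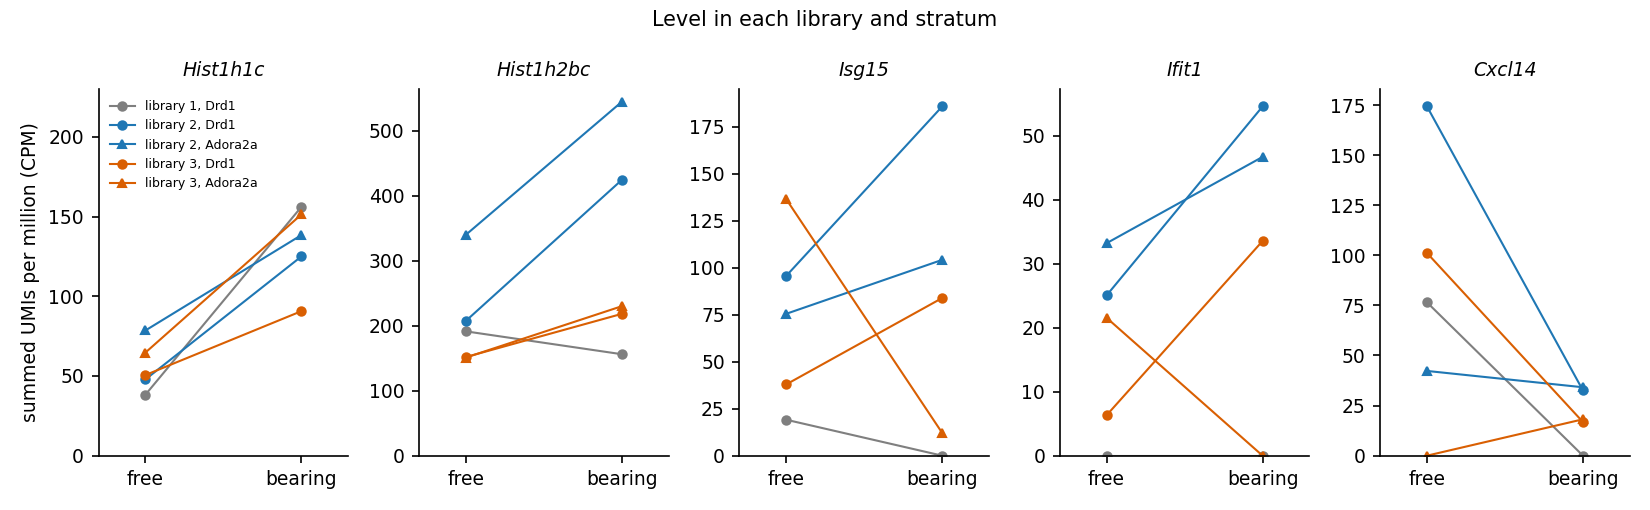
Summed level in CPM (y axis) of 5 genes in the free and bearing arms (x axis) of each library and stratum, all members, with lines joining the arms of a pair; circles are Drd1 and triangles Adora2a sums. Hist1h1c rises in every pair from 38.3 to 78.5 CPM in free to 90.6 to 156 CPM in bearing cells, while Isg15 is lower in bearing cells of library 1 and of the Adora2a stratum of library 3, where Ifit1 is lower too. Both Ifit1 sums of library 1 are 0.

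Cxcl14 (chr13:56288643-56296551, minus strand), which encodes a secreted chemokine, was the one gene called lower by edgeR with both sets of cells; like the other genes that passed with at least 4 markers it was named after its values were seen. With all members its free sums were 76.5 CPM in Drd1 cells of library 1, 174 and 42.3 CPM in the Drd1 and Adora2a cells of library 2, and 101 and 0 CPM in those of library 3. The bearing sums were 0, 32.6, 34.1, 16.8 and 18.2 CPM. The library 1 pair rests on 0 and 4 UMIs. The free sum was the higher one in the 3 Drd1 pairs, and the difference was small or reversed in the Adora2a pairs. edgeR gave -1.80 on the log2 scale (SE 0.326, adjusted p = 0.00352) with all members and -1.79 (SE 0.317, adjusted p = 0.0296) with at least 4 markers. In Drd1 cells alone it was -2.47 (SE 0.262, adjusted p = 0.0174), the 1 gene called there (0.0178% of 5633 tested), and in Adora2a cells alone -0.11 (SE 0.523, adjusted p = 0.999). The interaction of arm and stratum was 2.36 (SE 0.588) with an adjusted p of 0.899, so a difference between strata was not shown. Summed over libraries, the level was 102 CPM in free cells, 67.8 at 1 construct UMI, 23.5 at 2, 23.3 at 3, 28.9 at 4 to 9 and 44.9 at 10 or more. With all members the call was lost by DESeq2 (-1.47, adjusted p = 0.9996), with doublets removed (-1.75, edgeR adjusted p = 0.353), in bearing cells without mCherry (-1.70, adjusted p = 0.243) and at 3 or more (-1.70, adjusted p = 0.148) or 4 or more construct UMIs (-1.62, adjusted p = 0.195). Without library 2 the value was -1.85 (adjusted p = 0.711), and without library 1 -1.79 (adjusted p = 0.209).

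No gene that defines spiny neurons passed. With all members, 0 of 30 tested identity genes were called by edgeR, 3 had an unadjusted p under 0.05, and the median log2 fold change was 0.07, beside 0.00 over all genes. Ppp1r1b, the dopamine-regulated phosphatase inhibitor, was at -0.05 (SE 0.116) and Penk, the enkephalin precursor of indirect cells, at 0.02. Pdyn, the dynorphin precursor of direct cells, had the smallest p of the list, at 0.51 (SE 0.159, edgeR adjusted p = 0.229, higher in 5 of 5 pairs). Its bearing sums were 937, 698 and 601 CPM in the Drd1 cells of libraries 1 to 3 and its free sums 440, 433 and 582 CPM. In Adora2a cells it was at 70.1 against 39.3 CPM in library 2 and 24.2 against 0 CPM in library 3, the latter on 4 and 0 UMIs. DESeq2 called 0 of the list.

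Genes of spiny subtypes and of position within the striatum gave 1 call of 15 tested, Crip1, lower at -1.79 (SE 0.281, edgeR adjusted p = 0.000599), which encodes a small LIM-domain protein. Its direction differed by pair, lower in 3 and higher in 2, and 50.6% of its free UMIs lay in marker-poor cells. With at least 4 markers it was at -0.96 (adjusted p = 0.113), and 0 of 20 tested members passed. Reln (reelin) was higher in 5 of 5 pairs, at 0.78 (SE 0.208, adjusted p = 0.102), and did not pass. Its library 1 pair rests on 1 bearing and 2 free UMIs. Calb1, the calcium buffer calbindin, was at 0.41 (SE 0.135, adjusted p = 0.310), also higher in 5 of 5.

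Among genes with positive values that did not pass, Reln, Fosl2 and 3 others had the smallest p. Pde1c, a calmodulin-dependent phosphodiesterase, was at 0.77 (SE 0.187, edgeR adjusted p = 0.0524), with 312, 104, 101, 121 and 127 CPM in bearing and 57.4, 51.3, 58.9, 94.8 and 93.4 CPM in free sums. Bearing was higher in 5 of 5 pairs. Pou3f1, a POU-domain transcription factor, was at 0.58 (SE 0.151, adjusted p = 0.0853, 4 of 5 pairs), and Resp18, a secretory granule protein, at 1.34 (SE 0.366, adjusted p = 0.113, 5 of 5 pairs). Of the 71 Resp18 UMIs of bearing cells, 50.7% came from 5 cells. Its library 1 pair rests on 1 UMI in each arm. Its library 3 pairs rest on 4 bearing and 1 free UMIs in Drd1 cells and on 1 and 0 in Adora2a cells.

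Immediate early genes, which neurons transcribe within minutes of strong activity, were not called between the arms. Of 17 tested, 0 passed, 6 had an unadjusted p under 0.05, 7 were positive and 10 negative, and the median was -0.12; with at least 4 markers 0 of 18 passed and the median was 0.04. Fos was at -0.49 (adjusted p = 0.73), Arc at -0.26 (adjusted p = 0.93), Egr1 at 0.15 (adjusted p = 0.93) and Npas4 at -0.39 (adjusted p = 0.95) with all members. Fosl2, a Fos-family transcription factor, had the smallest p, at 0.94 (SE 0.253, edgeR adjusted p = 0.106), with 52.0, 59.9, 53.9, 20.1 and 60.5 CPM in bearing and 19.1, 27.3, 27.2, 19.0 and 35.9 CPM in free sums. It was higher in 5 of 5 pairs, narrowly so in the Drd1 cells of library 3. The library 1 pair rests on 1 UMI in each arm, and the Drd1 pair of library 3 on 6 bearing and 3 free UMIs.

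With the threshold raised to 4 or more construct UMIs, which left 4 pairs, 60 of 5265 genes passed (1.14%), 10 higher (0.19%) and 50 lower (0.95%). The 10 were Hist1h2bc, Hist1h1c, Nnat, Scg2, Rab3c, Pdyn, Fosl2, St6galnac5, Tac1 and Calb1, named after their values were seen. Pdyn stood at 0.62 (SE 0.156, edgeR adjusted p = 0.00875), Tac1, the substance P precursor, at 0.47 (SE 0.126, adjusted p = 0.0188), Fosl2 at 1.23 (SE 0.316, adjusted p = 0.0119) and Calb1 at 0.47 (SE 0.127, adjusted p = 0.0213). This fit held no library 1 sums. With library 1 left out at the threshold of 2 construct UMIs, 62 of 7923 genes passed, 6 higher and 56 lower. The part of the threshold in these calls was not tested. At exactly 1 construct UMI, against the same free cells, 40 of 6815 passed (0.587%), 38 lower (0.558%) and 2 higher (0.0293%), Calb1 at 0.45 (SE 0.0950, adjusted p = 0.00208) and Cartpt, a neuropeptide precursor, at 0.53 (SE 0.121, adjusted p = 0.00789). Neither histone gene passed there.

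Genes of antigen presentation and ribosomal proteins had negative medians with all members and medians near 0 without the marker-poor cells. Of 10 tested genes of MHC class I presentation, 9 were negative and H2-K1 passed, with a list median of -0.61 that became -0.05 with at least 4 markers, where 0 of 11 passed. All 34 tested proteins of the large ribosomal subunit were negative, 0 passed and the median was -0.27; with at least 4 markers 20 were negative, 14 positive and the median was -0.01. Hspa1a, an inducible heat shock protein, was the 1 call of 13 chaperone genes, lower at -1.83 (SE 0.329, edgeR adjusted p = 0.00352), and 81.7% of its 82 free UMIs lay in marker-poor cells.

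Mitochondrially encoded genes and Malat1 stayed lower in bearing cells with both sets of cells, without passing. All 12 tested mitochondrial genes were negative in both, with medians of -0.22 and -0.18, and 0 passed; mt-Co1, a subunit of cytochrome oxidase, was at -0.49 (edgeR adjusted p = 0.144) and -0.26 (adjusted p = 0.384). Malat1 was at -0.58 (SE 0.153, adjusted p = 0.0888) and -0.31 (SE 0.0904, adjusted p = 0.227), lower in 5 of 5 and 4 of 4 pairs. When cells were paired within 5% of UMIs it passed, at -0.60 (SE 0.0904, adjusted p = 6.84e-05) with all members and -0.60 (SE 0.0843, adjusted p = 0.000879) with at least 4 markers. Library 1 did not enter the paired fits. With all members it also passed when library 1 was left out with no pairing, at -0.45 (SE 0.110, edgeR adjusted p = 0.0344). The part of RNA quality in these differences was not tested.

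The remaining lists held 0 calls in both sets of cells. They were 36 tested genes of calcium sensing and CaMK signalling (median -0.02, range -0.80 to 0.41), 23 of synaptic vesicle release (median 0.03; Cplx1, complexin 1, had the smallest p, at -0.36, adjusted p = 0.497), 20 of AMPA and NMDA receptors and their scaffold (median 0.01; Cacng3, an AMPA receptor subunit of the TARP family, at 0.51, adjusted p = 0.287), 17 of the unfolded protein response (median 0.06; Hyou1 at 0.68, adjusted p = 0.877), 10 of the p53 response (median -0.02; Cdkn1a at -0.75, adjusted p = 0.471) and 11 of AAV entry and trafficking (median 0.04). Among the last, AU040320, the AAV receptor, was at -0.16 (adjusted p = 0.97) and Itgb1, an integrin, at -0.85 (adjusted p = 0.495). The medians lay near that over all genes, 0.00. A missed threshold does not show equal levels: in data simulated with these depths and 200 changed genes of 6145, a log2 change of 1 was recovered in 72.5% and one of 2 in 100% of the changed genes. The simulated counts had the same fixed spread for every gene and no differences between libraries or strata other than depth. These rates therefore do not give the power in the real data.

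By stratum, the number of genes called differed. In Drd1 cells alone 1 of 5633 passed, Cxcl14. In Adora2a cells alone, which had 2 pairs, 55 of 6630 genes passed (0.83%), 53 lower (0.799%) and 2 higher (0.0302%). The 2 were Sst and Npy, neuropeptides of an interneuron class, at 3.88 and 2.75 on the log2 scale. In library 2, 2 of the 160 bearing Adora2a cells held 478 of 518 Sst UMIs and 216 of 252 Npy UMIs. In the free Drd1 cells of that library, 2 of 331 cells held 185 of 250 Sst UMIs. In library 3 both genes were lower in bearing than in free Adora2a cells, on 4 UMIs or fewer in each sum. The free Adora2a cells of library 3 had the largest share of cells with fewer than 4 spiny markers, 22.2% of 54. Tested as an interaction, the difference between the arms was not the same in both strata for 1 gene of 6145 (0.0163%), Npy. With at least 4 markers this held for 3 of 7821 (0.0384%), Sst, Npy and Gnas.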

How the data were processed

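The deposited matrix holds raw UMI counts per gene and cell from the 10x Single Cell 3′ v2 kit, made by the authors with Cell Ranger 3.0 on mm10, per the submitters' processing notes. It pools 3 libraries and carries 28001 features, among them mCherry, TEV and tTA.

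The members and gene lists were chosen with earlier results of these data known. Counts were summed per library, stratum and arm (at least 10 cells a sum). The 10 sums fitted held 19388 to 955895 UMIs. edgeR 4.0.16 (R 4.3.3; filterByExpr, TMM scaling, robust quasi-likelihood test) was fitted with each library and stratum as a block, which pairs cells of the same library, and p-values were adjusted by Benjamini-Hochberg over all genes tested. DESeq2 1.42.0 was an alternative. On simulated data the fit made 0 calls without changed genes. With 200 genes changed by a log2 of 1 or 2 it made 2 and 6 false calls. The mCherry shares and the measures of depth and RNA make-up were compared over libraries with exact two-sided sign-flip permutation tests. Clopper-Pearson intervals of shares were taken at 95% with scipy 1.17.1. Thinning drew 1500 UMIs per cell.

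Doublets stayed in. The automatic Scrublet threshold (scanpy 1.11.5) marked 76 of 10291 cells, and an alternative removed 368. No per-sample column was left unused.

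Named genes were up to 10 per direction with the largest change among those past the threshold and with 1 sign in every pair, list members that passed, up to 5 with the smallest p in a direction with fewer calls, and the smallest p of each list. Genes chosen after their values were seen are Hist1h2bc, Isg15, Ifit1, Cxcl14, C1qa, C1qb, C1qc, Ly86, Ndufa4l2, Cald1, Vtn, Acta2, Myl9, Higd1b, Npy, Sst, Gnas, the genes called at 1 and at 4 or more construct UMIs, and list members that did not pass other than the smallest p. Gene positions are on GRCm38, and promoter windows come from RefSeq on GRCm38.p6.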

Additional observations from a re-analysis of the deposited data

Results flagged for a closer look

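The interaction of arm and stratum was tested by edgeR in the 5 pairs. For Npy, a neuropeptide of an interneuron class, the difference between bearing and free cells was not the same in both strata. The log2 fold change in Adora2a cells minus that in Drd1 cells was 3.627 (SE 0.590, adjusted p = 0.0291). In cells with at least 4 spiny markers the same difference was 2.895 for Npy (adjusted p = 0.0232) and 3.603 for Sst, the somatostatin gene (adjusted p = 3.78e-06). The Sst and Npy UMIs of the bearing Adora2a cells of library 2 lay mostly in 2 of 160 cells, of which the highest held 283 Sst and 146 Npy UMIs. The Adora2a cells of library 3 went the other way. With all members, Npy was there at 12.1 CPM in bearing and 28.7 CPM in free cells, on 2 and 4 UMIs. Sst was at 6.05 and 7.19 CPM, on 1 UMI in each arm.

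Gnas, which encodes a stimulatory G protein subunit, differed between the strata by 1.447 (SE 0.252, adjusted p = 0.0133) in cells with at least 4 markers. In Drd1 cells it was lower in bearing than in free cells, at 89.9 against 158 CPM in library 2 and 111 against 239 CPM in library 3. In Adora2a cells it was higher, at 402 against 292 CPM in library 2 and 835 against 516 CPM in library 3. The direction was the same in both libraries of each stratum. With all members the difference was 1.10 (SE 0.281) with an adjusted p of 0.970, and the library 1 pair, at 2 and 3 UMIs, was the 1 Drd1 pair in which bearing was higher.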

How the results depend on the processing

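The count of 35 genes moved by over 1.5 times under several settings. It was 2 with DESeq2, 68 with the package-default prior, 6 with the strata summed, 1 in Drd1 and 55 in Adora2a cells alone, 16 and 12 in the UMI windows of 1500 to 3000 and 3000 to 6000, 60 with at least 4 construct UMIs, 5 with at most 2 other-type marker UMIs and 64 without shared barcodes, where library 1 drops out. With no replicate block it was 0. Leaving out 1 library gave 0 to 62, with 0 without library 2 and 62 without library 1. With at least 3, 4 or 5 spiny markers it was 4, 5 and 4, with at least 4 it was 0 by DESeq2 and 6 with UMI pairs, and leaving out library 2 or 3 gave 2 to 55. The interaction count went from 1 to 3 with at least 4 markers. The mCherry difference of 18.5 percentage points was 15.1 thinned and 9.06 for at least 2 UMIs, and its summed log2 fold change was 3.01 to 3.88 with 1 library left out. The cause of these moves was not tested.

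Directions reversed for genes lower with all members. Lgals1 was at 0.19 at exactly 1 construct UMI. With at least 4 markers Sparc was at 0.00073 (0.12 by DESeq2) and C1qa at 0.0683 (0.0851 with UMI pairs, 0.11 without library 3). With at least 5, AW112010 was at 0.0543, Sparc at 0.0625, Sepp1 at 0.0704, H2-K1 at 0.19 and C1qa at 0.20. Of the settings of named genes, 821 kept direction and call, 211 lost the call and 61 gained it. Hist1h1c was positive in 31 of 31 settings and passed in 20, Hist1h2bc in 32 of 32 and 20, Isg15 in 27 of 30 and 5. Libraries 1 and 3 were shallower than library 2, and with library 2 left out Hist1h2bc went from 0.72 to 0.37 and Isg15 from 0.47 to -0.69.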
